A study of Mus musculus with 6 samples.

Results

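Notch signalling passes between neighbouring cells that touch. The set described here holds 10 genes of this pathway: the 4 receptors Notch1, Notch2, Notch3 and Notch4, the ligands Jag1, Jag2, Dll1 and Dll4, the nuclear coactivator Maml2 and the target gene Hes1. They were picked by symbol as a pathway set, with earlier results of these data known, and all 10 were found, each with 1 probe set, among 20239 named genes on 1-colour arrays. The cells were pericytes isolated from mice of the C57BL/6 background, mural cells that lie against the endothelium of small vessels. The study set 3 control arrays against 3 arrays of cells given platelet-derived growth factor BB (PDGF-BB), the ligand of the mural receptor PDGFR-β, at 100 ng/ml, and both groups were kept for 5 days. The labels name no mutant allele or other agent, give no age for the animals, and do not say whether the arrays of a group are separate cultures, so that p-values measure only the spread between these arrays, which may be technical.

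In the canonical pathway a Jagged or Delta ligand on 1 cell binds a Notch receptor on the next. ADAM proteases and then γ-secretase cut the receptor, and its intracellular domain enters the nucleus, where it joins the DNA-binding protein RBPJ and a Mastermind coactivator at genes such as those of the Hes and Hey families. In vessel walls, endothelial Jag1 is known to act on Notch3 of mural cells, and Notch2 and Notch3 are the receptors most often tied to mural cell maturation.

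The members with the clearest changes were a ligand and a coactivator, and the sequences at their annotated starts are shown because they fell together; the promoters of Notch1 and Notch2 are shown with them because these receptors moved in opposite directions. Each sequence is RefSeq's for GRCm38.p6, from 250 bases before the gene's start to 50 after it, 5′ to 3′ on the gene's strand. Capitals mark matches, on either strand, to the RBPJ core TGGGAA, the TEAD core GGAATG, the AP-1 site TGANTCA, the E-box CACGTG and the N-box CACNAG bound by Hes proteins. The Jag1 promoter lies at chr2:137116471-137116770 on the minus strand, that of Notch1 at chr2:26503773-26504072 on the minus strand, that of Notch2 at chr3:98013288-98013587 on the plus strand, and those of the 2 annotated starts of Maml2 at chr9:13297708-13298007 and chr9:13662210-13662509 on the plus strand.
Jag1: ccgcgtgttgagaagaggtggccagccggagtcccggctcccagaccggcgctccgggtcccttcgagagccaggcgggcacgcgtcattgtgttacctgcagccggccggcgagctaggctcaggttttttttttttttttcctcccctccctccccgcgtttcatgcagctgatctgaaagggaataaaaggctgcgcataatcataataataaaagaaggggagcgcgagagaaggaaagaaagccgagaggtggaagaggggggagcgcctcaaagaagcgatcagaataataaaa
Maml2, start 1: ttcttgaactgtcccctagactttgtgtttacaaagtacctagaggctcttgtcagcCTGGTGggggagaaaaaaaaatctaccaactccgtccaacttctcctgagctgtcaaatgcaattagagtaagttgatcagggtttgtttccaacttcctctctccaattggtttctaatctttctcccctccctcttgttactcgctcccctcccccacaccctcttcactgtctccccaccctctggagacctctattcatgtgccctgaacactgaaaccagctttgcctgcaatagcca
Maml2, start 2: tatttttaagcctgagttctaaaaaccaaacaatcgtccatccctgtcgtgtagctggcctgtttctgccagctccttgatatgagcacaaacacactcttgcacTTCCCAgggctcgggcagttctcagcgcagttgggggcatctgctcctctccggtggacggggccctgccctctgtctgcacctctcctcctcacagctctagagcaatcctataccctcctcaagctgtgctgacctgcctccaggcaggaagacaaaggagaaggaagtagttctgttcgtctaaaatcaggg
Notch1: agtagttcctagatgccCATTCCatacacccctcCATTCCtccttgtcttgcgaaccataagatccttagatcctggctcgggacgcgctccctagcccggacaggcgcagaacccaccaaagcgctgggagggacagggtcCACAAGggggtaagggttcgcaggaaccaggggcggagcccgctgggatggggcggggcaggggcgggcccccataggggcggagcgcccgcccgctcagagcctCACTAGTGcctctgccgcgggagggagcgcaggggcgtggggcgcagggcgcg
Notch2: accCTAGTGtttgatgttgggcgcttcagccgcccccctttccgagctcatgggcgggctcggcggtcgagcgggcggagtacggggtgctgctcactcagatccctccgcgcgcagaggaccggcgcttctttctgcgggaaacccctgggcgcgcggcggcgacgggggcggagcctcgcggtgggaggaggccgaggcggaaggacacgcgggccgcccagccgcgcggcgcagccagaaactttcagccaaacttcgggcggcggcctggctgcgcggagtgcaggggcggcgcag

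None of these 5 letter patterns occurs in the Jag1 window. The second Maml2 start holds the only RBPJ core among the 11 promoter sequences found for 9 of the 10 members (Hes1 had no entry), 145 bases before the start, whereas 25.6% of all 32851 promoters in the table hold that core. N-boxes occur in 6 of the 11 sequences, against 42.5% of all promoters. In the Notch1 window the N-box CACTAG begins 3 bases before the start and overlaps a match on the other strand, and a pair of TEAD cores begins 233 and 216 bases before it. TEAD cores occur in 14.7% of all promoters, and among the members the only other one is in Notch4. AP-1 sites (7.81% of all promoters) occur in 2 of the 11, those of Notch4 and of 1 start of Dll1, and the E-box (7.15%) in none. The array gives no measure of binding at any of these sites.

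The arrays and the markers of the cells are described first. The median log2 value lay between 8.43 and 8.46 on all 6 arrays, and arrays of a group correlated across genes at r = 0.994 to 0.996. Among 12 mural markers, Cspg4, Anpep, Cd248, Tbx18, Mcam, Tagln and Cnn1 and 2 others were above 7.56, a background level set at the 90th percentile of the means of 19 markers of lymphocytes, mast cells and red cell precursors, taken as absent. Des, Abcc9 and Higd1b were not, and Rgs5, a marker that defines brain and many other pericytes, (7.77 ± 0.03 in control, SD, n = 3) was barely above it. Pdgfrb, a receptor of mural cells that fibroblasts also carry, measured 12.98 ± 0.11 in control and 12.85 ± 0.09 with PDGF-BB. Of 7 fibroblast markers 6 were above the background level as well, among them Pdgfra (12.90 ± 0.10 in control), Dcn (13.54 ± 0.03), Col1a1 (12.76 ± 0.21) and Dpt (12.66 ± 0.31), and Pi16 was not. These markers thus do not separate the labelled pericytes from fibroblasts. Of 16 endothelial markers 11 lay under the background level in both groups, among them Pecam1, Kdr and Emcn; none passed limma's test, with or without the replicate block, and 1 had an unadjusted p under 0.05. The summed log2 level of those 16 markers was 114.97 to 115.09 on the control arrays and 113.8 to 115.7 on the PDGF-BB arrays. The other 5 were Flt1 (8.57 in control and 8.39 with PDGF-BB), Ptprb (7.85 and 7.74), Vwf (7.79 in both), Cldn5 (7.64 in both) and Cdh5, the marker with that p (0.029; adjusted p = 0.10, limma). Cdh5 read 7.23, 7.14 and 7.21 in control and 7.80, 7.88 and 7.23 with PDGF-BB, so that its groups did not overlap. Endothelial cells are a known source of Notch4, Dll4 and Jag1, and their part in the values of these genes was not tested. Because bulk RNA was measured, fewer cells of a type and less RNA per cell cannot be told apart.

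Of the 10 members, 2 rose (Notch1 and Dll1), 3 fell (Jag1, Maml2 and Notch2) and 5 did not pass the test (limma's moderated test, Benjamini-Hochberg adjusted p under 0.05 over all named genes). Among all named genes the same test called 21.5%, with 10.1% higher and 11.4% lower. That share was 28.8% and 38.7% when only genes from the 25th or 50th percentile of mean signal upwards were tested. Above the background level in at least 1 group were 9 of the 10 members. In 6 of the 10 members the PDGF-BB arrays lay wholly on 1 side of the control arrays, against 37.6% of all named genes. With the replicate number as a block 1 member rose (Notch1) and the same 3 fell, where 23.4% of all named genes were called. The median log2 change of the members was -0.05, and that of all named genes -0.02.

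**Figure D1:**
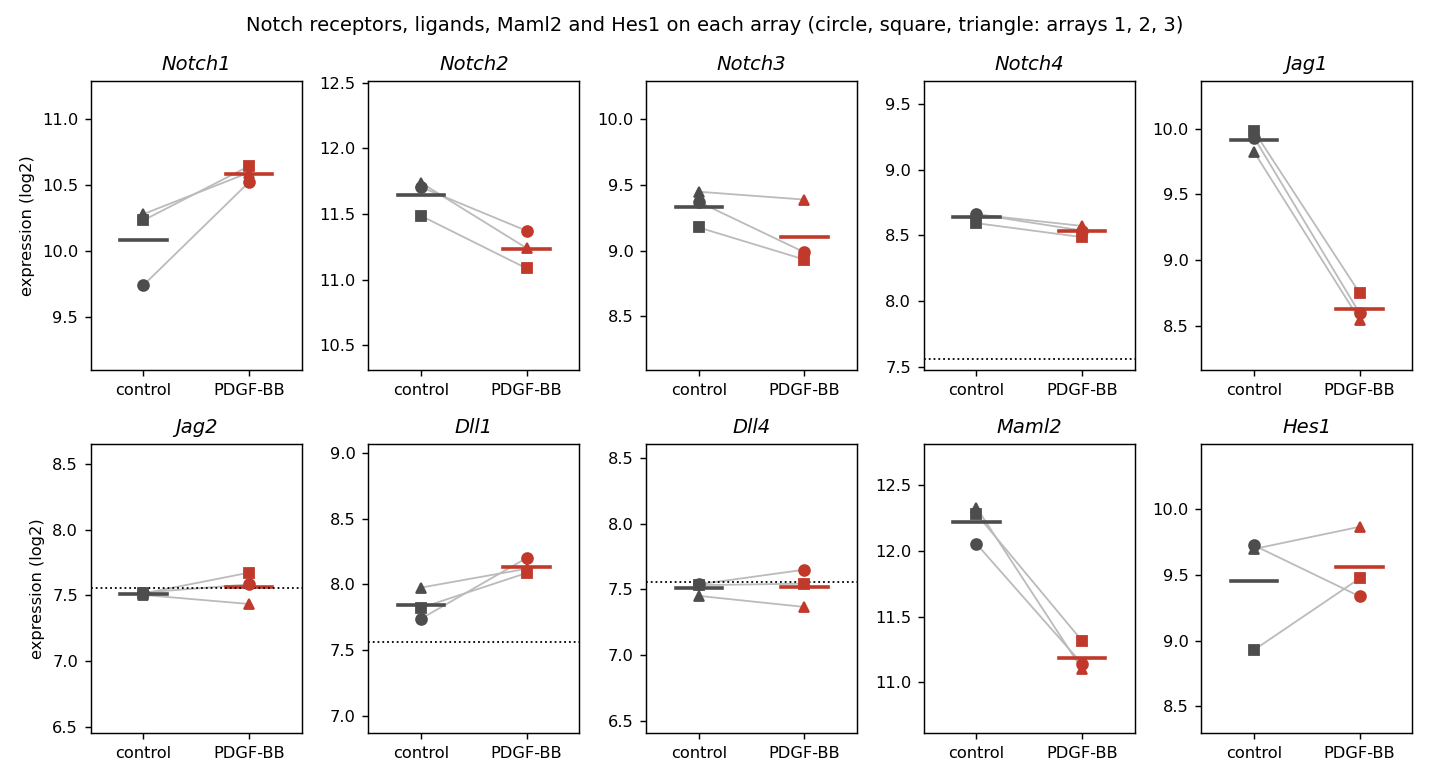
Log2 expression of the 10 genes on each array, control in grey and PDGF-BB in red; short bars are group means, thin lines join arrays of the same number, and every panel spans the same number of log2 units around its own centre. The dotted line is the background level of 7.56, around which Jag2 and Dll4 lie; Jag1 and Maml2 show the widest gaps between groups.

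Jag1 showed the largest change of the set. Jag1 (Entrez gene 16449) encodes Jagged1, the membrane ligand through which endothelial and mural cells signal to each other. The control arrays read 9.93, 9.98 and 9.82 on the log2 scale and the PDGF-BB arrays 8.59, 8.75 and 8.55. Every PDGF-BB array lay more than 1 log2 unit under the lowest control array. The fall was 2.43-fold (log2 change -1.28, SE 0.08, 95% interval -1.46 to -1.10, adjusted p = 4.7e-04, limma). Between arrays of the same number the difference was -1.34, -1.23 and -1.28. Over all 13 alternatives tried, the log2 change of Jag1 ran from -1.34 to -1.24 and the adjusted p from 2.5e-04 to 0.0039.

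The other ligands were dimmer and less clear. Dll1 (Entrez gene 13388), the Delta-like ligand 1, read 7.74, 7.82 and 7.98 in control and 8.20, 8.09 and 8.12 with PDGF-BB, with no overlap of the groups. The log2 change was 0.29 (SE 0.08, 95% interval 0.11 to 0.47, adjusted p = 0.036, limma). With the replicate number as a block the Dll1 call was lost (adjusted p = 0.053), and it was lost without any 1 array other than control array 3 (adjusted p = 0.073 to 0.11). These levels also lie within the range of the genes taken as absent, whose highest mean was 8.25.

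Jag2 and Dll4 stayed at the background level on every array or close to it. Jag2 (Entrez gene 16450), the second Jagged ligand, read 7.52, 7.51 and 7.50 in control and 7.58, 7.67 and 7.43 with PDGF-BB. Dll4 (Entrez gene 54485), a Delta-like ligand best known from arterial endothelium and sprouting tip cells, read 7.54, 7.53 and 7.45 in control and 7.65, 7.54 and 7.37 with PDGF-BB. The groups overlapped in both genes. Their log2 changes were 0.05 (95% interval -0.12 to 0.22, adjusted p = 0.71) and 0.01 (-0.18 to 0.21, adjusted p = 0.95), and a change in genes this dim may go unseen.

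Among the receptors, Notch1 and Notch2 moved in opposite directions. Notch1 (Entrez gene 18128) read 9.74, 10.23 and 10.28 in control and 10.52, 10.64 and 10.60 with PDGF-BB. The groups did not overlap, and control array 1 was the lowest of them. Notch1 rose 1.42-fold (log2 change 0.50, SE 0.14, 95% interval 0.17 to 0.84, adjusted p = 0.046, limma). The adjusted p was 0.018 with the replicate block. It was 0.061 without control array 2, 0.097, 0.12 and 0.11 without PDGF-BB array 1, 2 and 3, and 0.055 with quantile normalization repeated.

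Notch2 (Entrez gene 18129) read 11.70, 11.49 and 11.74 in control and 11.37, 11.09 and 11.24 with PDGF-BB. All 3 PDGF-BB arrays were below all 3 controls. Notch2 fell 1.33-fold (log2 change -0.41, SE 0.10, 95% interval -0.65 to -0.17, adjusted p = 0.027, limma; 0.0095 with the replicate block). Leaving out control array 1 or 3 ended the call (0.069 and 0.085), as did leaving out PDGF-BB array 2 or 3 (0.080 and 0.074).

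The difference between these receptors was also taken within each array, a contrast chosen after their values were seen. The log2 value of Notch1 minus that of Notch2 was -1.96, -1.25 and -1.46 in control and -0.85, -0.44 and -0.64 with PDGF-BB. The mean thus shifted by 0.91 log2 units (SD 0.37 in control and 0.20 with PDGF-BB). Since the pair was picked for its opposite changes, this is a description with no test.

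Notch3 and Notch4 did not pass the test. Notch3 (Entrez gene 18131), the receptor most closely tied to mural cells, read 9.37, 9.18 and 9.45 in control and 8.99, 8.93 and 9.39 with PDGF-BB. PDGF-BB array 3 overlapped the controls. The log2 change was -0.23 (95% interval -0.55 to 0.09, adjusted p = 0.30, limma). The interval with the replicate block was -0.43 to -0.03 (adjusted p = 0.11), and the adjusted p without PDGF-BB array 3 was 0.052.

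Notch4 (Entrez gene 18132), a receptor known mainly from endothelium, read 8.66, 8.59 and 8.66 in control and 8.54, 8.49 and 8.57 with PDGF-BB. The PDGF-BB arrays were all below the controls by a small margin. Its log2 change was -0.11 (95% interval -0.24 to 0.03, adjusted p = 0.25, limma).

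**Figure D2:**
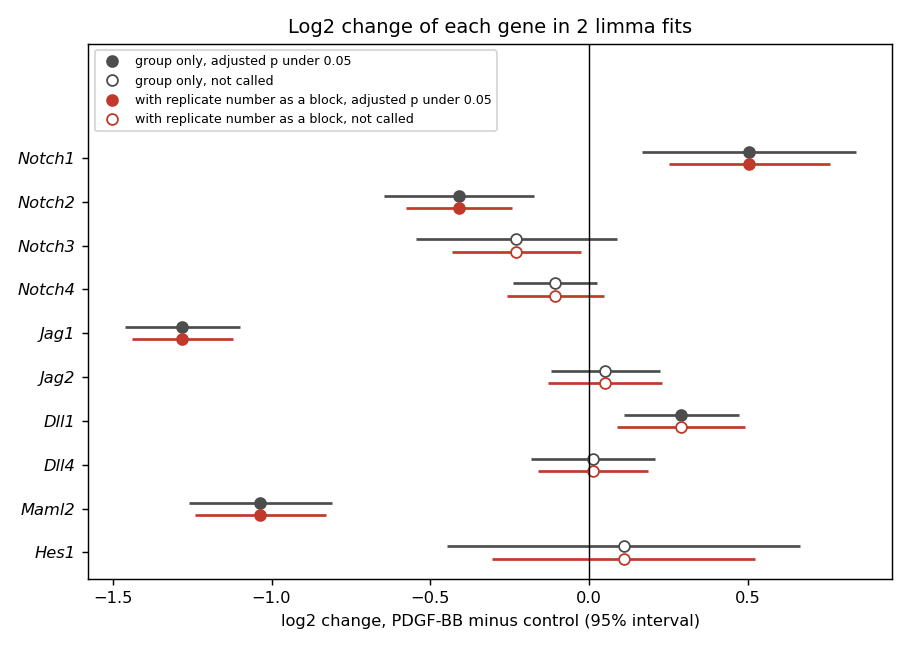
Log2 change (PDGF-BB minus control) of each gene with its 95% interval from limma, in grey for the fit with the group only and in red with the replicate number as a block; filled points have an adjusted p under 0.05. Jag1 at -1.28 and Maml2 at -1.04 lie farthest from 0, and Dll1 is filled in the first fit only.

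The nuclear members differed. Maml2 (Entrez gene 270118) encodes a Mastermind-like protein, the coactivator that the cleaved receptor and RBPJ recruit. It read 12.05, 12.28 and 12.33 in control and 11.14, 11.32 and 11.10 with PDGF-BB. The groups were more than 0.7 log2 units apart at their nearest arrays. Maml2 fell 2.05-fold (log2 change -1.04, SE 0.10, 95% interval -1.26 to -0.81, adjusted p = 0.0013, limma), and by 0.91, 0.96 and 1.23 log2 units between arrays of the same number. Over the 13 alternatives its log2 change ran from -1.12 to -0.98 and its adjusted p from 6.3e-04 to 0.0079.

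Hes1 (Entrez gene 15205), a basic helix-loop-helix repressor and a direct target of the pathway, showed no call. It read 9.73, 8.93 and 9.70 in control and 9.34, 9.47 and 9.87 with PDGF-BB. The groups overlapped, and control array 2 was the lowest of the 6. The log2 change was 0.11 (SE 0.24, 95% interval -0.45 to 0.67, adjusted p = 0.82, limma). Without control array 2 it was -0.15 (adjusted p = 0.61). The interval is wider than that of any other member, so rises or falls of up to 0.45 log2 units lie within it.

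**Figure D3:**
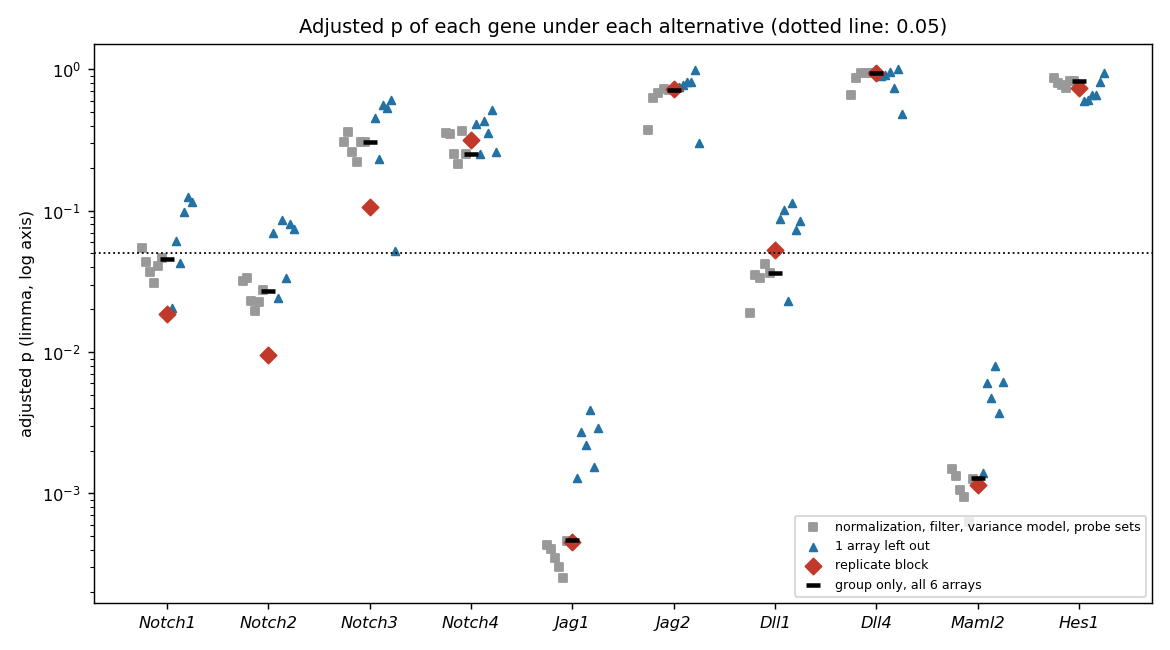
Adjusted p of each gene (log axis) in the fit with the group only on all 6 arrays (black bar), with the replicate block (red diamond), with 1 array left out (blue triangles) and under other normalizations, filters, a variance model and probe sets (grey squares). Jag1 and Maml2 stay under the dotted line at 0.05 throughout, whereas the points of Notch1, Notch2 and Dll1 lie on both sides of it.

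The rest of the pathway was read from 7 lists of other Notch genes, of which 78 of 84 genes were measured. Of these, 10 rose and 11 fell, which is 26.9% against 21.5% of all named genes. Their median log2 change was -0.03, against -0.02 for all named genes. Above the background level in at least 1 group were 71 of the 78, against 12929 of all 20239 named genes. With only genes from the 25th or 50th percentile of mean signal upwards tested, 28.8% and 38.7% of those were called. The shares are thus not matched for brightness, and those of single lists below carry the same limit.

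Of 11 measured enzymes that add sugars to the EGF-like repeats of the receptor, 4 rose (3 with the replicate block), 1 fell and 6 were not called. That is 45.5% called against 21.5% of all named genes, with a median log2 change of 0.01. All 11 were above the background level in at least 1 group. With only genes from the 25th or 50th percentile of mean signal upwards tested, 28.8% and 38.7% of those were called. Gxylt2, which adds the first xylose to O-linked glucose, read 12.15, 12.02 and 11.84 in control and 12.55, 12.65 and 12.65 with PDGF-BB. Those groups did not overlap, and Gxylt2 rose 1.53-fold (log2 change 0.61, SE 0.09, adjusted p = 0.0041, limma). Poglut2, a protein O-glucosyltransferase, rose 1.38-fold (0.47, SE 0.10, adjusted p = 0.016). Its relatives Poglut1 and Poglut3 were not called, with log2 changes of -0.13 (adjusted p = 0.38, limma) and -0.13 (0.23). The other 2 that rose, named after their values were seen, act in the same sugar chain as Gxylt2. Gxylt1, the second enzyme for the first xylose, had a log2 change of 0.23 (adjusted p = 0.024, and 0.054 with the replicate block), and Xxylt1, which adds the next xylose, one of 0.25 (adjusted p = 0.018). Lfng, Lunatic fringe, an N-acetylglucosaminyltransferase that tunes the response of the receptor to Jagged and Delta ligands, read 8.27, 8.12 and 8.07 in control and 7.74, 7.50 and 7.61 with PDGF-BB. Lfng fell 1.45-fold (log2 change -0.54, SE 0.09, adjusted p = 0.0061), while its relatives Mfng and Rfng had log2 changes of -0.10 (adjusted p = 0.30) and -0.04 (0.78). Both Lfng means (8.15 and 7.62) lie under the highest mean of the genes taken as absent, 8.25, and the second is close to the background level of 7.56. Poglut2 lost its call without control array 2 (adjusted p = 0.053), Xxylt1 on leaving out control array 3, PDGF-BB array 1 or PDGF-BB array 2 (0.057 to 0.062), and Gxylt1 in 5 of the 6 fits that leave out an array.

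Of 8 measured cleavage genes 1 rose and 2 fell (37.5% called, against 21.5% of all named genes). Adam17, a membrane protease able to cut Notch at its outer site, read 11.31, 11.15 and 11.14 in control and 11.72, 11.58 and 11.77 with PDGF-BB. It rose 1.41-fold (log2 change 0.49, SE 0.08, adjusted p = 0.0054, limma). Adam10, the protease that makes this cut after ligand binding, changed by -0.20 log2 units with an adjusted p of 0.052 (95% interval -0.33 to -0.06; named after its value was seen). Adam10 was called with quantile normalization repeated (0.035) and when only the brighter genes, from the 50th percentile of mean signal upwards, were tested (0.046). Aph1b and Aph1c, alternative subunits of γ-secretase, fell 1.53-fold and 1.46-fold (adjusted p = 0.013 and 0.011). These 2 genes are close copies of each other in the mouse, and whether their probes tell them apart was not tested. Psen2 and Ncstn, further γ-secretase subunits, had log2 changes of -0.17 (adjusted p = 0.25) and 0.16 (0.13).

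In the list of endocytosis and turnover, 1 of 15 genes rose and 3 fell (26.7% called, against 21.5% of all named genes). Dtx3l, a Deltex-family ubiquitin ligase also known to be interferon-inducible, rose 1.72-fold, from 10.66 ± 0.27 to 11.44 ± 0.23 (SD, n = 3 each, adjusted p = 0.015, limma). Its relative Dtx4 fell 1.68-fold (log2 change -0.75, adjusted p = 0.024; named after its value was seen), and Dtx3 had a log2 change of -0.36 with an adjusted p of 0.055, or 0.013 with the replicate block. Dtx4 lost its call without control array 1 (log2 change -0.63, adjusted p = 0.057), control array 3 (-0.80, 0.051) or PDGF-BB array 1 (-0.77, 0.068). Numbl, an adaptor related to the Notch inhibitor Numb, fell 1.37-fold (adjusted p = 0.0097). Mib2, a ubiquitin ligase that readies ligands for signalling, fell 1.26-fold (adjusted p = 0.010), while Mib1, which does the same, had a log2 change of 0.20 (adjusted p = 0.095).

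In the nuclear complex 1 of 15 measured genes rose and 1 fell (13.3% called, against 21.5% of all named genes). The acetyltransferase gene Kat2a rose 1.29-fold (adjusted p = 0.016, limma) and Kdm1a, a histone demethylase, fell 1.27-fold (adjusted p = 0.023). Each lost its call in 4 of the 6 fits that leave out an array (adjusted p = 0.053 to 0.073 there). Rbpj, the DNA-binding partner of the pathway, read 8.91, 8.98 and 9.10 in control and 9.23, 9.25 and 9.17 with PDGF-BB. The groups did not overlap, but the log2 change of 0.22 had an adjusted p of 0.059 (0.095 with the block), and it passed without control array 3 (0.044) and when only those brighter genes were tested (0.049). Maml1 and Maml3, the relatives of Maml2, had log2 changes of -0.09 (95% interval -0.23 to 0.04, adjusted p = 0.34) and -0.04 (-0.29 to 0.21, 0.85).

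Among the other 8 Hes and Hey genes 1 fell and none rose (12.5% called, against 21.5% of all named genes). Hes6, a family member that opposes Hes1, read 9.78, 9.89 and 9.78 in control and 9.45, 9.43 and 9.47 with PDGF-BB, and fell 1.29-fold (log2 change -0.37, SE 0.06, adjusted p = 0.0053, limma). Hey1, a Notch target in vessel walls, read 7.83, 7.86 and 7.84 in control and 7.81, 7.74 and 7.77 with PDGF-BB. Heyl, a target known from mural cells, read 7.97, 7.96 and 8.09 in control and 8.16, 7.97 and 7.87 with PDGF-BB. Their log2 changes were -0.07 (adjusted p = 0.42) and -0.01 (0.98). These levels are close to the background level of 7.56, Hey2 lay under it, and so did Nrarp, a feedback inhibitor induced by Notch (log2 change -0.12, adjusted p = 0.47).

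Of 12 further genes known as targets in some tissues, 3 rose and 2 fell (41.7% called, against 21.5% of all named genes). Ccnd1, cyclin D1, and the growth regulator Myc each rose 1.70-fold (adjusted p = 0.0018 and 0.010, limma), and the arterial ephrin Efnb2 had a log2 change of 0.54 (adjusted p = 0.039; 0.12 on leaving out control array 2, control array 3, PDGF-BB array 1 or PDGF-BB array 3). Snai1, a repressor of epithelial genes, fell 1.32-fold (adjusted p = 0.0090), and Acta2, smooth muscle actin, 2.10-fold (adjusted p = 0.024), a call lost without any 1 control array or PDGF-BB array 1 (0.058 to 0.067). Epas1 and Snai2 did not pass (adjusted p = 0.085 and 0.084) but did with the replicate block (0.046 and 0.012). Epas1 read 11.70, 10.41 and 11.51 with PDGF-BB against 10.38, 10.33 and 10.20 in control, and without PDGF-BB array 2 its log2 change was 1.30 (adjusted p = 0.0023). All of these genes answer to other pathways as well.

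The 9 other ligands and ligand-like proteins held 1 gene that fell and none that rose (11.1% called, against 21.5% of all named genes). Mfap5, a microfibril protein able to bind Jagged1 and Notch1, read 12.27, 11.90 and 12.29 in control and 10.40, 8.39 and 10.12 with PDGF-BB. It fell 5.72-fold (log2 change -2.52, SE 0.49, adjusted p = 0.012, limma), the PDGF-BB arrays spreading far more than the controls. Without PDGF-BB array 2 its log2 change was -1.89 (adjusted p = 0.0027). Dlk1 and Egfl7, membrane or secreted proteins with EGF-like repeats, had log2 changes of -0.11 (adjusted p = 0.91, limma) and 0.16 (0.20). Ccn3, a secreted protein of the CCN family, had one of 0.30 (0.25).

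**Figure D4:**
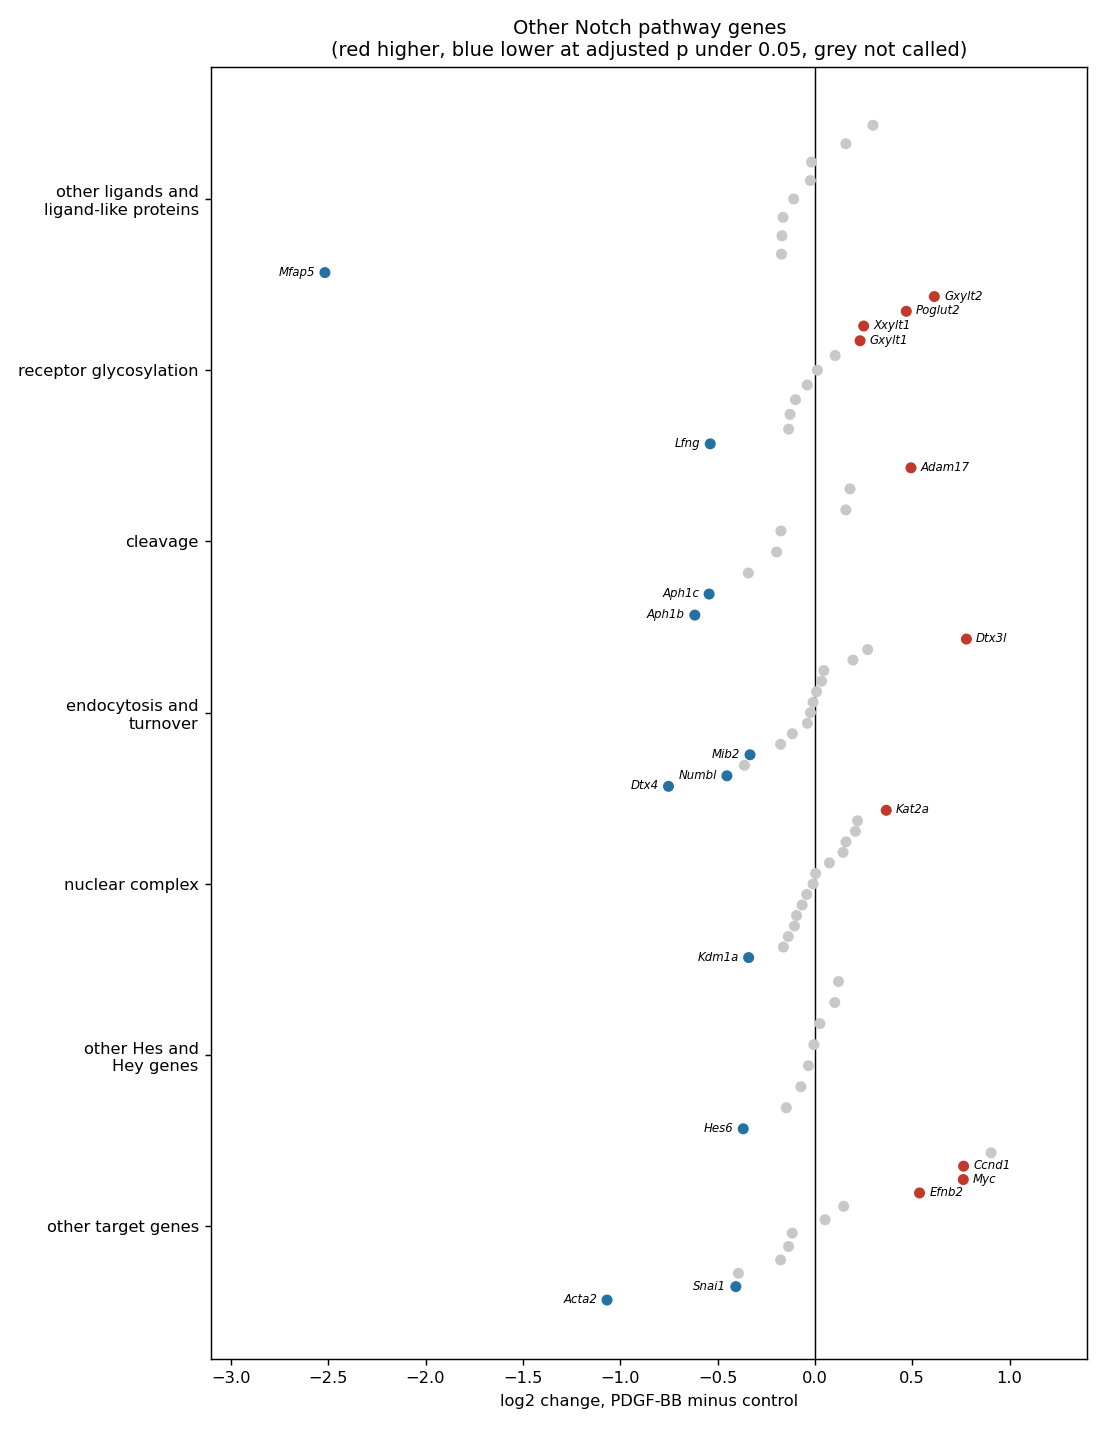
Log2 change (PDGF-BB minus control) of the 78 other Notch pathway genes by list; red genes were higher and blue genes lower at a limma adjusted p under 0.05, and grey genes were not called. Mfap5 at -2.52 lies farthest from 0, and the red points in the glycosylation list are Gxylt2, Poglut2, Xxylt1 and Gxylt1.

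The gene whose values followed those of Jag1 most closely over the 6 arrays was Aspn, the small leucine-rich proteoglycan asporin (Pearson r = 0.999), followed by Ubl7 and Cpe (r = 0.997 each). Aspn fell by 3.07 on the log2 scale, from a mean of 12.43 to 9.36, and Cpe, carboxypeptidase E, by 0.74. For Maml2 the nearest were 6430550D23Rik, Cln6 and Tmem178 (r = 0.996 each), with log2 changes of -0.67, -0.45 and -1.82. For Notch2 they were Lpp, Gatad2b and Eif5a2 (r = 0.997, 0.995 and 0.995), for Dll1 Sav1, Tnc and Angptl8 (0.996, 0.991 and 0.985), and for Notch1 Olfr1036, Chrna6 and Mrpl46 (0.998, 0.994 and 0.989). Olfr1036 and Chrna6 had means under the background level and log2 changes of 0.08 and 0.07. The points share the treatment, which alone sets much of r in any gene that changed. In all, 51 genes reached r over 0.99 with Jag1, 29 with Maml2, 11 with Notch2 and 2 each with Notch1 and Dll1. Of the 3 genes nearest to Notch1 none was called (adjusted p = 0.37, 0.40 and 0.15, limma).

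Markers of the cell types that could accompany these changes were counted beside them. The share called was 33.3% of mural, 14.3% of fibroblast and 20% of macrophage markers, against 21.5% of all named genes. Of 12 mural markers 1 rose, Anpep (1.83-fold, adjusted p = 0.0028, limma), and 3 fell, among them the contractile genes Tagln (4.22-fold, 0.0095) and Cnn1 (5.14-fold, 0.012); the third was Cd248 (log2 change -0.33, 0.040). The call of Cd248 was lost without any 1 array other than control array 1, with log2 changes from -0.35 to -0.25 and adjusted p from 0.081 to 0.13. With the replicate block 2 mural markers rose and 4 fell: Cspg4, the NG2 proteoglycan (log2 change 0.91), went from an adjusted p of 0.065 to 0.015, and the adhesion molecule Mcam (-0.52) from 0.15 to 0.023. The summed log2 level of the list was 106.3 to 109.3 on the control arrays and 102.9 to 104.3 on the PDGF-BB arrays. Tagln and Cnn1 had the widest changes in it (log2 changes -2.08 and -2.36), and no other marker fell by more than Mcam. Anpep (0.87) and Cspg4 (0.91) went the other way, so the sum does not describe a fall across the list. Of 7 fibroblast markers Dpt rose (1.65-fold, adjusted p = 0.019; not called without control array 3 or PDGF-BB array 2 or 3, 0.061 to 0.066) and none fell, with a summed level of 83.9 to 84.8 in control and 85.1 to 86.0 with PDGF-BB. Of 10 macrophage markers Cd68 and Lyz2 fell (log2 changes -0.42 and -0.49), with a summed level of 69.8 to 70.6 and 68.8 to 69.7. Under the background level in both groups were 8 of the 10, including Ptprc, Adgre1, Csf1r and Lyz2 itself (means 6.29 and 5.80). Cd68 had an adjusted p of 0.067 and 0.058 when PDGF-BB array 1 or 2 was left out. None of 8 epithelial markers passed in limma, with or without the block, and 0 had an unadjusted p under 0.05; their summed level was 58.5 to 58.8 in control and 57.7 to 59.9 with PDGF-BB. The part of these mural, fibroblast and macrophage marker changes in those of the Notch genes was not tested.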

How the data were processed

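RNA of mouse pericytes was measured on 6 1-colour arrays, with groups taken from the sample titles. The authors deposited log2 expression values, and the submitters' processing notes name RMA, which corrects background, quantile-normalizes and summarises probe sets; its software, version and probe set definition were not given in the sources used here. RMA equalises the arrays, which hides a change in RNA content per cell. Of 21225 probe sets, 20239 carry exactly 1 gene symbol, all found by Entrez number in RefSeq's gene table, and were tested with limma 3.58.1 (R 4.3.3; lmFit and eBayes, group as the only factor, no filter on dim genes, two-sided, Benjamini-Hochberg over all 20239). Folds were computed from the log2 changes. Arrays have no read depth; 3 arrays per group limit the precision.

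The members and lists were chosen with earlier results of these data known. Named are the 10 members; from each list up to 2 called genes in each direction with the smallest p; and for each called member the 3 genes with the highest r. Others are uncalled relatives and markers, or genes named after their values were seen, not all of which are marked so where they appear. Efnb2, Cd248, Epas1, Snai2, Dtx3, Rbpj and Cspg4 are among those named after their values were seen. The labels number the arrays 1 to 3 in each group and do not say what a number stands for. Deviations from the group means correlated at 0.25 to 0.32 between arrays of the same number and at -0.28 to 0.01 otherwise. These ranges are not independent. The deviations of a group sum to 0 in each gene, so positive values for the same number push the others below 0 on average. The main test did not use the numbers, which entered as a block in an alternative fit only. Alternatives were repeated quantile normalization, centring on the median, filters at the 25th and 50th percentile of mean signal, eBayes with trend and robust, each array left out, the replicate block, and all probe sets.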

Additional observations from a re-analysis of the deposited data

How the results depend on the processing

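Jag1 and Maml2 kept their direction and their call in all 13 alternatives, and none of the 10 members reversed a called direction; the uncalled changes of Jag2, Dll4 and Hes1 took either sign. The count of members that rose was 1 rather than 2 with the replicate number as a block, with quantile normalization repeated, and with only genes from the 50th percentile of mean signal upwards, where Dll1 was not tested; it ran from 0 to 2 with 1 array left out. Dll1 lost its call with the block at a log2 change of 0.29, and Notch1 with quantile normalization repeated at 0.49. With 1 array left out, the log2 change of Notch1 ran from 0.33 to 0.60, that of Notch2 from -0.49 to -0.34 and that of Dll1 from 0.24 to 0.36. The count of other pathway genes that rose ran from 6 to 10 there, the lowest being without PDGF-BB array 1. With 5 arrays the share of all named genes that passed was lower as well, down to 14.5% without PDGF-BB array 2. The block changed no other call among the members. Dll1, Jag2 and Dll4 lie close to background, which limits what the array can show of them.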

Other observations

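Dlk1, a membrane protein related to the Delta ligands, followed the array number rather than the treatment (named after its values were seen). It read 9.74, 11.26 and 10.86 on control arrays 1, 2 and 3 and 9.77, 11.09 and 10.67 on PDGF-BB arrays 1, 2 and 3. Arrays of the same number thus differed by 0.04, -0.18 and -0.19 log2 units, while the SD within a group was 0.79 in control and 0.67 with PDGF-BB. What a number stands for is not in the labels.

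PDGF-BB array 2 stood apart in several pathway genes, also picked after their values were seen. It read 8.39 for Mfap5, against 10.40 and 10.12 on the other PDGF-BB arrays, 10.41 for Epas1 (11.70 and 11.51) and 10.02 for Eogt, the O-GlcNAc transferase of EGF-like repeats (10.74 and 10.73). For Cspg4, the NG2 proteoglycan of pericytes, it was the highest, at 10.12 against 9.42 and 8.90. Jag1 (8.75 against 8.59 and 8.55) and Maml2 (11.32 against 11.14 and 11.10) differed much less on that array.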
